A study of Mus musculus with 29 samples.

Results

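Urea cycle enzymes and the amino acid enzymes that feed them ammonia were described in whole mouse liver. The 10 genes Cps1, Otc, Ass1, Asl, Arg1, Nags, Slc25a15, Gls2, Hal and Sds were taken by name from the gene count table, in which they are 10 of 55421 genes. All 10 were found, and all 10 passed the filter on low counts in every comparison. Bulk polyA RNA-seq had been done on livers of mice of both sexes that received vehicle or HDM201, an oral inhibitor that keeps MDM2 from binding p53. Young vehicle mice were C57BL6/N, labelled 5 months old, and old mice were C57BL/6J, labelled 20 months in females and 24 months in males. The methods make the young mice and the old females a month younger and a month older than their labels do. Old mice received vehicle (methylcellulose in phosphate buffer) or 10 mg/kg HDM201, gavaged once daily over 14 days, and young mice received vehicle for 14 days. None of the mice carries a transgene in the labels. Young and old differ in substrain as well as age, so age and substrain cannot be told apart, and old females and old males differ in age as well as sex.

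Counts were given for 5 young, 4 old vehicle and 5 old HDM201 females and for 4 young, 4 old vehicle and 5 old HDM201 males. Old vehicle male 1 and young vehicle male 5 have FPKM values only. Reads on genes ran from 16485900 to 23570458 per mouse, with a median of 19149235. Every 2 libraries of a group differed by more than sampling noise. The 9 hepatocyte markers tested summed to 106377 to 136439 CPM in old vehicle females, 111626 to 121651 in young females, 121201 to 173051 in old vehicle males and 109311 to 117808 in young males. None of these hepatocyte markers was at 0 in any group. CPM are reads on a gene scaled to library size with TMM factors, and levels are given as mean ± SD over n mice.

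The urea cycle turns ammonia, which is toxic to the brain, into urea for excretion. It starts in the mitochondria of hepatocytes, ends in their cytosol, and is run mainly by the periportal cells, which meet the nitrogen-rich blood from the gut first. Pericentral cells instead catch the ammonia that escapes by making glutamine. Expression of the cycle enzymes is raised by protein-rich diets, fasting, glucagon and glucocorticoids. Nags makes N-acetylglutamate, the obligate activator of Cps1, which forms carbamoyl phosphate from ammonia and bicarbonate. Otc joins carbamoyl phosphate to ornithine to give citrulline, and Slc25a15 carries ornithine into and citrulline out of the mitochondrion. Ass1 adds aspartate to citrulline, Asl splits the product into arginine and fumarate, and Arg1 cuts arginine into urea and ornithine. Gls2, the liver-type glutaminase and a known p53 target, releases ammonia from glutamine. Hal deaminates histidine to urocanate, and Sds deaminates serine to pyruvate and ammonia.

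All 10 genes are protein-coding, and their positions are those of the GRCm38 annotation, the assembly of mm10. Cps1 lies at chr1:67123026-67231259 on the plus strand and Otc at chrX:10252305-10321024, also plus, the sole member on the X chromosome. Ass1 spans chr2:31470207-31520672 (plus) and Asl chr5:130011258-130029247 (minus). Hal (chr10:93488768-93519304, plus), Gls2 (chr10:128194457-128210004, plus) and Arg1 (chr10:24915221-24927484, minus) share chromosome 10. Sds is at chr5:120476526-120483932 (plus), Nags at chr11:102145513-102149477 (plus) and Slc25a15 at chr8:22375551-22398597 (minus).

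RefSeq promoters (GRCm38.p6) were matched for 5 of the 10 genes, and 4 are shown, picked by their calls in the comparisons below. Otc was called between the sexes in young mice, Hal and Nags between the sexes in old mice, and Slc25a15 with age in both sexes. Sex calls were 1 of the 10 in young mice, beside 10.5% of all genes, and 2 in old mice, beside 18%. Arg1 and Sds, without a matched promoter, were also called lower with age in both sexes. Each promoter shown is the 250 bases before the start, 5′ to 3′ on the strand of the gene, with motif matches in capitals. The motifs, chosen after the sequences had been seen and searched on both strands, were first those of hepatocyte factors, TTGCNNAA for C/EBP and AAAGTNCA for HNF4. The FOX factors were searched for as TGTTTAC. A short core of the element that cyclic AMP signalling acts on was searched for as TGACG. Of the general promoter elements, the GC box was searched for as GGGCGG. The TATA element was searched for as TATAAA.
Otc, chrX:10252055-10252304 (plus): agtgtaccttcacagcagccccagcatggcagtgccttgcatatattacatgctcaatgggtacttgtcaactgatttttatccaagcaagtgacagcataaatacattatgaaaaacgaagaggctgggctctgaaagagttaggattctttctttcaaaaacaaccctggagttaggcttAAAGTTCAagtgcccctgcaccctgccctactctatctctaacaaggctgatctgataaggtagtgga
Hal, chr10:93488518-93488767 (plus): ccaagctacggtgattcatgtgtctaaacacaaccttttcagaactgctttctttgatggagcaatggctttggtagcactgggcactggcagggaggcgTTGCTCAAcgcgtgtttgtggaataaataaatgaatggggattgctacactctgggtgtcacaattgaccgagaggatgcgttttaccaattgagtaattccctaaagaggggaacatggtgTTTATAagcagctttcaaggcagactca
Nags, chr11:102145263-102145512 (plus): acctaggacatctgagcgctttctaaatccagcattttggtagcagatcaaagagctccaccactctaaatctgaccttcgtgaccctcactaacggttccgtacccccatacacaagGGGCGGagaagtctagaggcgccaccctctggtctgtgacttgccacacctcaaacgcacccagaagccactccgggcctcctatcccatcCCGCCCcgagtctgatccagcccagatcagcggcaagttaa
Slc25a15, chr8:22398622-22398871 (minus): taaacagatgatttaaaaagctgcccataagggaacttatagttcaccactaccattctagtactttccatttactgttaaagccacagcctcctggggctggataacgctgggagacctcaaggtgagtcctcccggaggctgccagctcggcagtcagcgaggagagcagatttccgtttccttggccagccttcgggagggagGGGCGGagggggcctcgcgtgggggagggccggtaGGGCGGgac

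The capitals in Otc are an HNF4 match that begins 68 bases before the start. Those in Hal are a C/EBP match at 150 bases and a TATA match at 28 bases before the start. This TATA match (TTTATA) reads on the strand opposite the gene. Nags has GC boxes at 132 bases and, on the opposite strand, at 41 bases, and Slc25a15 at 44 and 9 bases. RefSeq gives Slc25a15 a further start, and the 250 bases before it (chr8:22398278-22398527), which are not shown, hold 5 GC boxes. Among 32851 promoters of the same length, 3.53% hold the HNF4 letters, 9.56% the C/EBP letters, 12.4% the TATA letters and 32.7% the GC box. Of the other motifs, the cyclic AMP core is in 17.8% and the FOX letters in 3.17% of all promoters, and in none of the 4 shown. These are matches of letters, and no binding was measured.

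Levels of different genes were compared per length, as mean FPKM (fragments per kilobase of transcript scaled to library size, ± SD over mice). Ass1 was the most abundant member in young females, at 3890.0 ± 423 FPKM (n = 5), and Nags the least, at 41.6 ± 6.41. Between them in young females were Arg1 at 1339.7 ± 131, Cps1 at 765 ± 143, Asl at 687 ± 163, Sds at 577 ± 120.0, Gls2 at 321 ± 16.4, Hal at 215 ± 40.1, Otc at 191 ± 11.3 and Slc25a15 at 90.3 ± 7.83. In old vehicle females Ass1 stood at 2254 ± 423 FPKM (n = 4), Arg1 at 939.8 ± 152, Cps1 at 439.8 ± 100.1 and Nags at 55.8 ± 0.837. Ass1 kept the first place and Nags the last in both groups.

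By mean CPM the young groups held the highest level of 9 of the 10 genes. Young females were highest for Cps1, Otc, Ass1, Asl, Gls2 and Hal, and young males for Arg1, Slc25a15 and Sds. Nags was highest in old vehicle females, at 102 ± 1.23 CPM (n = 4), followed by young males at 95.9 ± 7.74 (n = 4). The lowest group was old HDM201 males for Otc, Ass1, Asl, Gls2 and Sds. Old vehicle males were lowest for Nags, Slc25a15 and Hal, and old vehicle females for Cps1 and Arg1. Neighbours in these orders often lay within each other's spread: Ass1 was 2956 ± 744 CPM in old HDM201 males (n = 5) and 3019 ± 400.4 in old HDM201 females (n = 5). With mean FPKM the highest group differed for Arg1, and the lowest for Arg1 and Nags.

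**Figure D1:**
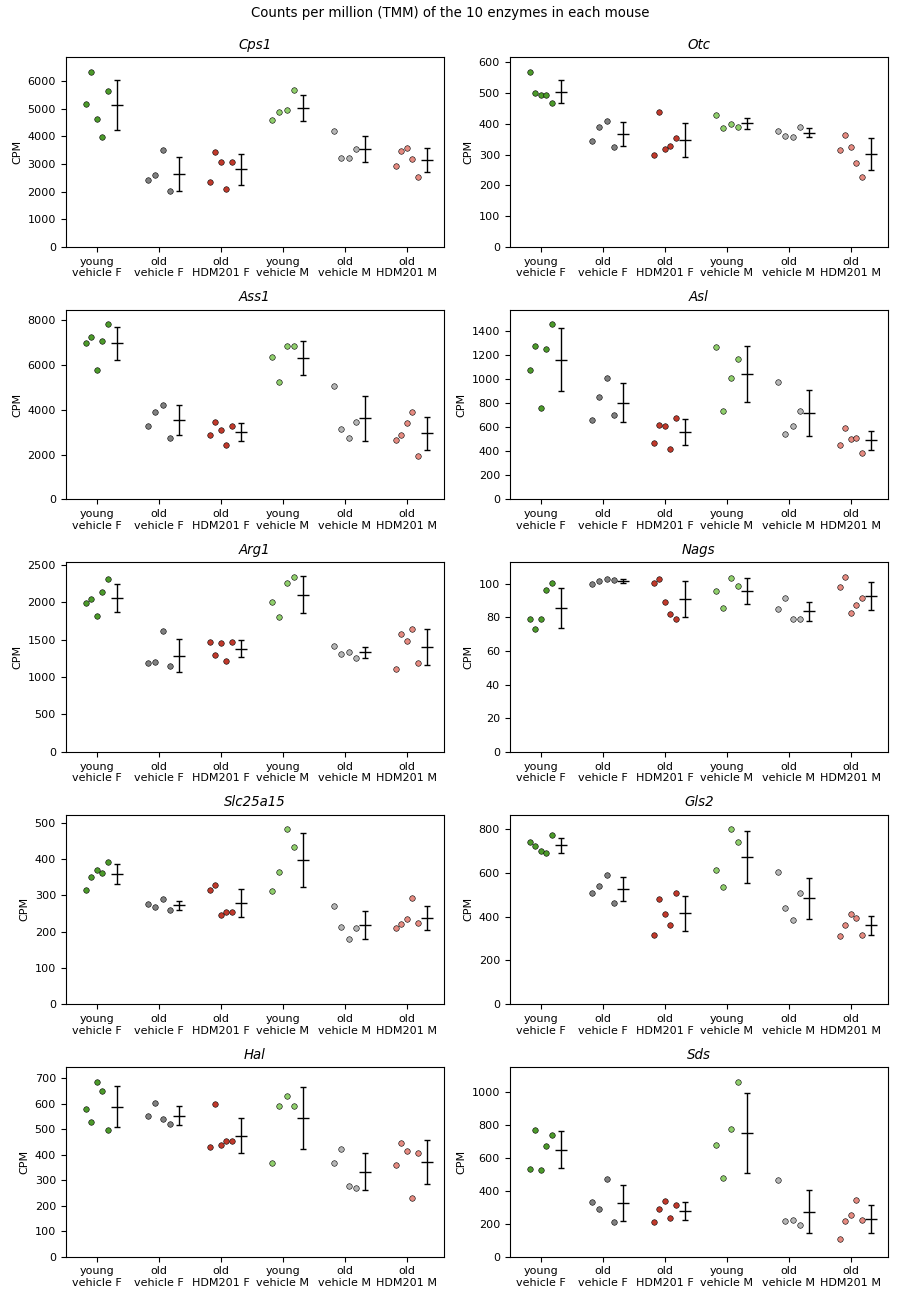
CPM of each of the 10 genes (vertical axes, from 0) in every mouse with counts, by group (horizontal axis). Points are mice, and the mark beside them is the group mean with its SD. In Cps1, Ass1, Arg1, Slc25a15 and Sds the young mice of each sex lie above all old vehicle mice of that sex, and in Nags young and old mice of each sex overlap.

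The 10 genes together took 1.80, 1.98, 1.58, 1.74 and 2.02% of the TMM-scaled library in the 5 young females and 0.967, 1.08, 1.27 and 0.848% in the 4 old vehicle females. The share was 1.67, 1.51, 1.83 and 1.94% in the 4 young males and 1.38, 1.00, 0.942 and 1.07% in old vehicle males 2 to 5. In both sexes every old vehicle mouse lay below every young mouse. Shares with HDM201 were 0.885, 1.10, 1.01, 0.785 and 1.04% in the 5 old females and 0.851, 1.02, 1.07, 1.09 and 0.754% in the 5 old males. Of these, HDM201 female 4 and HDM201 males 1 and 5 lay below all old vehicle mice of their sex, and the other 7 within their range. No test was run on this sum.

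**Figure D2:**
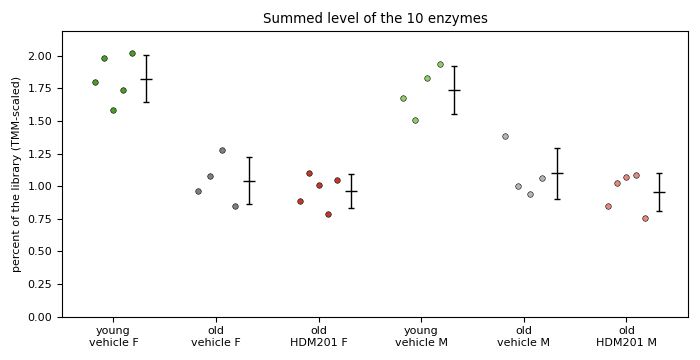
Summed level of the 10 genes as a percent of the TMM-scaled library (vertical axis) in each mouse by group (horizontal axis), with the group mean and SD beside the points. Young mice of each sex lie above all old vehicle mice of that sex, and old HDM201 mice overlap old vehicle mice.

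The comparison of old with young vehicle females asked how these genes differ with age, with substrain changing alongside. Of the 10 genes, 8 were lower in old females, none was higher, and Nags and Hal did not pass the test. Genes called lower at an FDR under 0.05 made up 15% of the 14233 genes tested, and genes called in either direction 31.8%. In 7 of the 10 genes every old female lay below every young one, as did 13.6% of all genes tested. The median log2 fold change of the 10 was -0.47, beside 0.0094 over all genes. In bulk liver, fewer cells that express a gene and less RNA per cell cannot be told apart. Fold changes are log2 values ± SE with FDR-adjusted p-values from edgeR's quasi-likelihood test over all genes, and they measure the spread between these mice.

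Among the mitochondrial steps, Cps1 was 5169, 6326, 4626, 3974 and 5634 CPM in young females 1 to 5 and 2429, 2621, 3499.7 and 2017 in old vehicle females 1 to 4. Old female 3 was the highest of its group and still lay below the lowest young mouse, and the groups did not overlap (log2 fold change -0.94 ± 0.17, adjusted p = 0.00139). Otc was 568, 501, 494, 493 and 468 CPM in the young and 346, 390.3, 409 and 326 in the old females. It fell less than Cps1, without overlap (log2 fold change -0.43 ± 0.093, adjusted p = 0.00395). The ornithine carrier Slc25a15 was 316, 351, 371, 361 and 391 CPM in young and 276, 268, 289 and 259 in old females, and again the groups were apart (log2 fold change -0.37 ± 0.081, adjusted p = 0.00450). Nags went the other way in level but was not called: it was 79.2, 73.0, 79.1, 96.4 and 100.5 CPM in young and 100.1, 101.5, 102.8 and 102.4 in old females, and young female 5 lay within the range of the old mice (log2 fold change 0.27 ± 0.10, adjusted p = 0.0501). It was called higher in 4 of 7 alternatives, with all 6 groups in 1 fit, with the replicate block and with limma on either log2 FPKM scale (adjusted p 0.0155 to 0.0721 over the edgeR, DESeq2 and limma alternatives), and in 2 of 9 fits that omitted 1 mouse. The old females differed in Nags by less than counting error: their SD was 1.21% of the mean, where the Poisson error of a count is 2.21%.

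In the cytosolic steps, Ass1 was 6978, 7240.1, 5792, 7065 and 7818 CPM in young and 3276, 3926, 4218 and 2738 in old vehicle females. All old mice lay below all young mice (log2 fold change -0.96 ± 0.14, adjusted p = 0.000364). Asl, the next enzyme, was 1075, 1278, 759, 1249 and 1459 CPM in young and 661, 849.9, 1014 and 700.0 in old females. It was called lower although the groups overlapped, young female 3 lying below old females 2 and 3 (log2 fold change -0.51 ± 0.18, adjusted p = 0.0440). The Asl call was kept in 4 of 7 alternatives and lost with the replicate block and with limma on either log2 FPKM scale (adjusted p 0.00673 to 0.171 over the edgeR, DESeq2 and limma alternatives). Arg1, which releases urea, was 1989, 2049, 1813, 2143 and 2317 CPM in young and 1186, 1207, 1612 and 1146 in old females. Old female 3 was well above the other old mice and below every young one (log2 fold change -0.66 ± 0.12, adjusted p = 0.00131).

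Of the enzymes that release ammonia from amino acids, Sds was 536, 772, 529.7, 673 and 738 CPM in young and 334, 293, 474 and 212 in old vehicle females. The groups did not overlap, and Sds had the most negative log2 fold change of the 10, close to those of Ass1 and Cps1 (log2 fold change -0.97 ± 0.20, adjusted p = 0.00315). Gls2 was 742, 723, 698, 690.4 and 772 CPM in young and 509, 539, 591 and 462 in old females. Young mice varied little and lay above all old mice (log2 fold change -0.44 ± 0.087, adjusted p = 0.00246). Hal was 577, 527, 686, 649 and 496 CPM in young and 552, 603, 538 and 520.1 in old females. All 4 old mice lay within the range of the young ones (log2 fold change -0.062 ± 0.10, adjusted p = 0.684, 95% interval -0.29 to 0.16).

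Within the old vehicle females 1 mouse stood apart. Old female 3 had the highest CPM of its group in 9 of the 10 genes and old female 4 the lowest in 8. The summed CPM of 12 genes of the fasting response was 10951 in old female 3 and 6789 to 7439 in the other 3, and its part in the member values was not tested. When single mice were omitted, 7 genes (Cps1, Otc, Ass1, Arg1, Slc25a15, Gls2 and Sds) were called in all 9 fits. Asl was called in 2 of the 9, without old female 3 and without young female 3 (edgeR adjusted p 0.00536 to 0.127), and Nags, as higher, in 2, without young female 4 and without young female 5. Macrophage markers, 12 genes with none at 0, summed to 495 to 1019 CPM in old vehicle and 303 to 446 in young females. Of these markers 11 were called higher, beside 2392 of the 14233 genes tested. Hepatocyte marker sums overlapped between the 2 groups, and 1 of 9 was called lower, beside 15% of all genes.

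In males the same question gave fewer calls. Of the 10 genes, Arg1, Slc25a15 and Sds were lower in old vehicle males and none was higher, where 0.931% of the 13755 genes tested were called lower and 3.69% in either direction. All 10 genes had a log2 fold change below 0, as did 52.3% of all genes, and their median was -0.59 beside -0.015 over all genes. In 5 of the 10 genes (Cps1, Ass1, Arg1, Slc25a15 and Sds) every old vehicle male lay below every young male, as in 6.51% of all genes tested.

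Slc25a15 was 313, 365, 483 and 433 CPM in young males 1 to 4 and 272, 213, 179 and 209 in old vehicle males 2 to 5. The young males spread widely, and all lay above the old ones (log2 fold change -0.86 ± 0.17, adjusted p = 0.0247). Arg1 was 2007, 1808, 2255 and 2343 CPM in young and 1422, 1308, 1331 and 1259 in old males, also without overlap (log2 fold change -0.65 ± 0.13, adjusted p = 0.0247). Sds was 679.8, 480.2, 779 and 1067 CPM in young and 469, 217, 223 and 190.0 in old males. Old male 2 nearly reached young male 2 and the other 3 old males lay far below, with the most negative log2 fold change among the 10 (log2 fold change -1.44 ± 0.32, adjusted p = 0.0405).

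The 2 remaining genes without overlap were not called. Cps1 was 4598, 4866, 4957 and 5687 CPM in young and 4197, 3229.6, 3218 and 3552 in old males (log2 fold change -0.49 ± 0.14, adjusted p = 0.0843), and old male 2 was close to young male 1. Ass1 was 6367, 5233, 6856 and 6847 CPM in young and 5066, 3164, 2755 and 3474 in old males (log2 fold change -0.80 ± 0.20, adjusted p = 0.0585), with old male 2 just below young male 2. Hal overlapped through young male 1, whose value lay within the old range: it was 366, 589.9, 629 and 591 CPM in young and 365, 421, 279 and 269 in old males (log2 fold change -0.69 ± 0.20, adjusted p = 0.0784).

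Asl was 1272, 738, 1010.2 and 1167 CPM in young and 977, 549, 609.7 and 737 in old males, with old male 2 above young male 2 (log2 fold change -0.53 ± 0.22, adjusted p = 0.183). Gls2 overlapped in the same pair of mice, at 613, 534, 799 and 740.0 CPM in young and 604, 439, 386 and 507 in old males (log2 fold change -0.46 ± 0.17, adjusted p = 0.151). Otc was 428, 386, 399 and 391 CPM in young and 376, 362, 359 and 388 in old males, the smallest difference of the 10 (log2 fold change -0.10 ± 0.088, adjusted p = 0.554, 95% interval -0.30 to 0.10). Nags was 95.5, 85.5, 103.7 and 99.0 CPM in young and 85.1, 91.3, 79.3 and 79.1 in old males, where young male 2 lay within the old range (log2 fold change -0.19 ± 0.094, adjusted p = 0.284).

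The 2 males without counts lie outside their groups in many of these genes. Young male 5 had a lower FPKM than all 4 other young males in 9 of the 10 genes. Ass1 was 1411 FPKM beside 2973 to 3873 in the others, Cps1 407 FPKM beside 666 to 861, Asl 197 FPKM beside 456 to 720.5, Gls2 113 FPKM beside 238 to 354 and Sds 270.4 FPKM beside 438 to 965. Albumin in that mouse was 32211 FPKM, within the 30404 to 33656 of the other 4. The methods report that a young male was left out of the analysis for an open wound and a suspected infection. They do not say whether that mouse was young male 5. Old vehicle male 1 was below all 4 others in Cps1, Otc, Ass1, Asl, Gls2 and Hal, for example at 344 FPKM beside 471 to 655 for Cps1, and its albumin was 26094 FPKM beside 33572 to 54554. With all 5 old vehicle and 5 young males, limma on log2(FPKM + 1) called 0 of the 10 genes with age, and with the mice that have counts it called 1, Arg1.

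**Figure D3:**
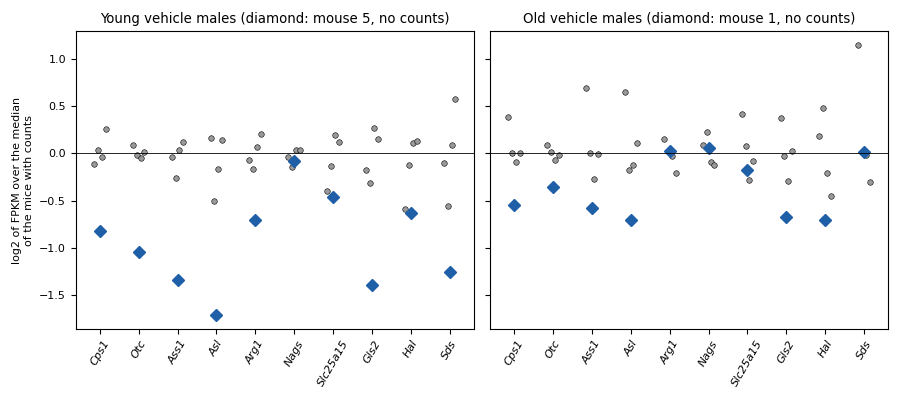
Log2 of the FPKM of each of the 10 genes over the median of the 4 mice with counts (vertical axis), in young vehicle males (left) and old vehicle males (right). Circles are mice with counts and the diamond is the mouse without counts. Young male 5 lies below the other 4 young males in 9 of the 10 genes, and old vehicle male 1 below the other 4 old males in 6.

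The male calls also changed with the mouse omitted, while the log2 fold changes of the 3 called genes stayed below 0. Over the 8 fits they ran from -0.73 to -0.59 for Arg1, -0.98 to -0.75 for Slc25a15 and -1.83 to -1.22 for Sds. The number of members called was 0 without old vehicle male 3, old vehicle male 4, young male 3 or young male 4, and 4 without old vehicle male 2, Ass1 being added. Without young male 1 Arg1, Slc25a15 and Hal were called. DESeq2 called 6 (Cps1, Ass1, Arg1, Slc25a15, Hal and Sds). Old vehicle male 2 was the highest of its group in 7 of the 10 genes, and its summed fasting genes were 10004 CPM beside 5902 to 6134 in the other 3. Young male 2 was the lowest of its group in 7 genes. Acute phase genes summed to 11139.6 to 21862 CPM in young males 2 to 4 and 6483 in young male 1. Macrophage markers summed to 216 to 648 CPM in old vehicle and 139.7 to 284 in young males. Of these 12 markers 3 were called higher, beside 379 of the 13755 genes tested. The part of these gene sums in the member values was not tested.

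Whether the age difference itself differed between the sexes was tested as an interaction over the 4 vehicle groups. It passed the threshold in 0 of the 10 genes with edgeR and in 3.92% of all 14721 genes, and 4 of the 10 and 21.5% of all genes had an unadjusted p under 0.05. Nags, which was higher in old than young females and lower in old than young males by mean CPM, had the lowest adjusted p (log2 difference of the fold changes 0.47 ± 0.14, edgeR adjusted p = 0.0570). It passed with DESeq2 (adjusted p = 0.0243), as the sole member, and with limma on log2(FPKM + 1) (adjusted p = 0.0405), and the adjusted p ran from 0.0243 to 0.0944 over 9 alternative settings of edgeR, DESeq2 and limma. Without young male 1, Slc25a15 and Hal passed. Over the 17 fits that omitted 1 mouse Nags passed in 2, Slc25a15 in 2 and Hal in 1. For Cps1 the 95% interval of the difference was -0.91 to 0.039 and for Ass1 -0.66 to 0.36, both of which hold a difference as large as the male fold change of Cps1.

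Old HDM201 females were compared with old vehicle females to ask what MDM2 inhibition changes in the aged liver. The age and HDM201 comparisons of a sex share their old vehicle mice, so their values are given side by side and their likeness is not read. With edgeR 0 of the 10 genes were called, where 5.25% of 14445 genes were. Of the 10, 4 had an unadjusted p under 0.05 (Asl, Gls2, Hal and Nags), as did 22.5% of all genes, and 7 lay below 0 beside 49.8% of all genes. No member was without overlap between the groups, beside 10.2% of all genes, and the median of the 10 was -0.21.

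Asl came nearest to a call. It was 474, 624, 616, 422 and 675 CPM in HDM201 females 1 to 5 and 661, 849.9, 1014 and 700.0 in vehicle females 1 to 4. Only HDM201 female 5 lay above the lowest vehicle mouse (log2 fold change -0.54 ± 0.15, adjusted p = 0.0657, 95% interval -0.88 to -0.20). Asl passed with DESeq2, as its sole member called (adjusted p = 0.0139) and without the filter on low counts (edgeR adjusted p = 0.0162), and its adjusted p ran from 0.0551 to 0.168 when single mice were omitted. With limma on log2(FPKM + 1) no member was called. Against young females the same gene had a log2 fold change of -0.51 in old vehicle mice.

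Gls2, a known p53 target, was 314, 482, 412, 362 and 506 CPM with HDM201 and 509, 539, 591 and 462 with vehicle. HDM201 females 1, 3 and 4 lay below all vehicle mice and the other 2 within their range (log2 fold change -0.36 ± 0.13, adjusted p = 0.129, 95% interval -0.64 to -0.072). Hal was 430.1, 598, 437, 453 and 453 CPM with HDM201 and 552, 603, 538 and 520.1 with vehicle. HDM201 female 2 was high among the treated mice and the other 4 lay below every vehicle mouse (log2 fold change -0.24 ± 0.10, adjusted p = 0.175). Hal was called without that mouse (edgeR adjusted p = 0.0276, log2 fold change -0.34).

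Nags was 100.8, 103.0, 89.2, 82.0 and 79.2 CPM with HDM201 and 100.1, 101.5, 102.8 and 102.4 with vehicle, and HDM201 females 3 to 5 lay below the vehicle range (log2 fold change -0.18 ± 0.081, adjusted p = 0.204). Cps1, the enzyme it activates, was 2366, 3426, 3084, 2085 and 3055 CPM with HDM201 and 2429, 2621, 3499.7 and 2017 with vehicle. Its groups overlapped fully, and the 95% interval was -0.30 to 0.44 (log2 fold change 0.066 ± 0.17, adjusted p = 0.860). Arg1 was 1472, 1292, 1455, 1217 and 1466 CPM with HDM201 and 1186, 1207, 1612 and 1146 with vehicle. All 5 treated mice lay above vehicle females 1, 2 and 4 and below vehicle female 3 (log2 fold change 0.081 ± 0.11, adjusted p = 0.709). The remaining 4 genes had log2 fold changes of -0.10 (Otc), -0.25 (Ass1), 0.020 (Slc25a15) and -0.26 (Sds), with edgeR adjusted p-values of 0.644, 0.301, 0.930 and 0.482. HDM201 female 2 was the highest of the treated mice in 6 of the 10 genes. Macrophage markers summed to 306 to 497 CPM with HDM201 beside 495 to 1019 with vehicle, and none of the 12 was at 0. Of these markers 10 were called lower, beside 419 of the 14445 genes tested, and their part in the member values was not tested.

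In old males HDM201 gave 0 calls among the 10 genes with edgeR and also with DESeq2 and limma. Over all 14109 genes 0.00709% was called. Of the 10, 3 had an unadjusted p under 0.05 (Asl, Gls2 and Otc), beside 12.1% of all genes. The median log2 fold change was -0.21, and 6 of the 10 were below 0 beside 47.2% of all genes. No member was without overlap, beside 4.03% of all genes.

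Asl was 454, 597, 506, 516 and 386 CPM in HDM201 males 1 to 5 and 977, 549, 609.7 and 737 in vehicle males 2 to 5. HDM201 male 2 lay within the vehicle range and the other 4 below it (log2 fold change -0.54 ± 0.17, adjusted p = 0.294). Gls2 was 313, 359.6, 411, 395 and 317 CPM with HDM201 and 604, 439, 386 and 507 with vehicle, with HDM201 males 3 and 4 inside the vehicle range (log2 fold change -0.42 ± 0.14, adjusted p = 0.298). Otc was 314, 364, 324, 274 and 227 CPM with HDM201 and 376, 362, 359 and 388 with vehicle, and HDM201 male 2 was the only treated mouse not below all vehicle mice (log2 fold change -0.30 ± 0.12, adjusted p = 0.368). HDM201 male 5 had the lowest value of its group in Cps1, Otc, Ass1 and Asl, and its acute phase genes summed to 21346 CPM beside 7171 to 10168 in the other 4, a difference whose part in the member values was not tested.

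Sds varied widely among the treated males, at 107, 219, 251, 347 and 226 CPM, beside 469, 217, 223 and 190.0 with vehicle. Vehicle male 2 stood above the other 3 and above all treated mice (log2 fold change -0.25 ± 0.33, adjusted p = 0.794, 95% interval -0.98 to 0.48). The log2 fold changes of Cps1 (-0.17), Ass1 (-0.28), Arg1 (0.081), Nags (0.16), Slc25a15 (0.13) and Hal (0.16) had edgeR adjusted p-values of 0.484 to 0.839. The interaction of sex and HDM201 passed in 0 of the 10 genes with edgeR, DESeq2 and limma, and in 0.107% of 14974 genes with edgeR. Of the 10, 1 had an unadjusted p under 0.05, beside 18.5% of all genes. Asl, at -0.54 in both sexes, had a difference of 0.0051 with a 95% interval of -0.52 to 0.53. Nags had a difference of -0.33 ± 0.12 (edgeR adjusted p = 0.149).

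**Figure D4:**
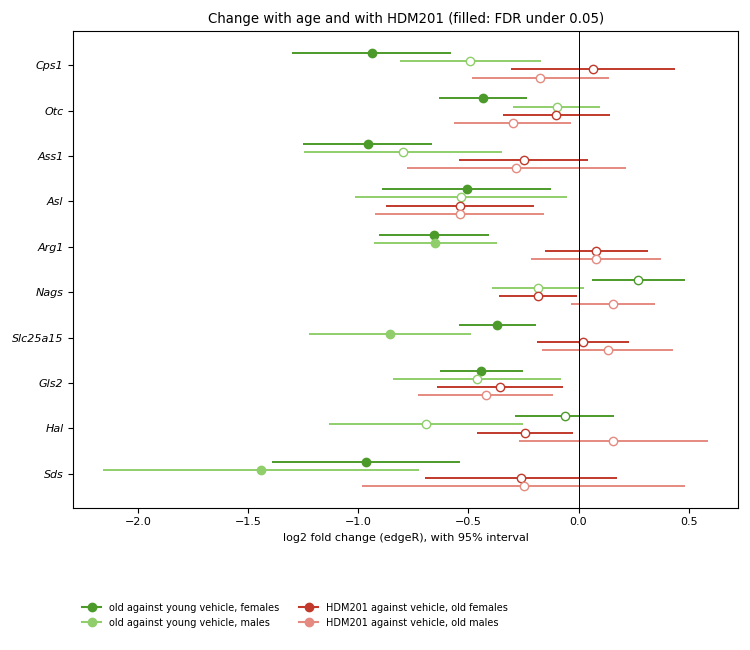
Log2 fold change of each of the 10 genes (vertical axis lists genes, horizontal axis log2 values) in the age and HDM201 comparisons of females and males; bars are 95% intervals from edgeR and filled points passed an FDR under 0.05. The filled points are 8 genes in the female and 3 in the male age comparison, all below 0, and no HDM201 point is filled.

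Between the sexes, Otc was the member called in young vehicle mice, higher in females, where 5.63% of 13875 genes were called higher and 10.5% in either direction. It was 568, 501, 494, 493 and 468 CPM in young females and 428, 386, 399 and 391 in young males, without overlap, as in 12.8% of all genes (log2 fold change 0.32 ± 0.095, adjusted p = 0.0487). This call is close to the threshold. It was lost without any 1 mouse other than young male 1 (edgeR adjusted p = 0.0367 to 0.119 over these fits), and DESeq2 kept it (adjusted p = 0.00445). In old vehicle mice Otc was 346, 390.3, 409 and 326 CPM in females and 376, 362, 359 and 388 in males, which overlapped (log2 fold change -0.011 ± 0.088, adjusted p = 0.941).

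In old vehicle mice 2 members, Hal and Nags, were higher in females, where 8.4% of 14088 genes were called higher and 18% in either direction. Hal was 552, 603, 538 and 520.1 CPM in old females and 365, 421, 279 and 269 in old males. All females lay above all males, as in either direction in 23.1% of genes (log2 fold change 0.73 ± 0.14, adjusted p = 0.00815). Nags was 100.1, 101.5, 102.8 and 102.4 CPM in old females and 85.1, 91.3, 79.3 and 79.1 in old males, a small difference between ranges that did not overlap (log2 fold change 0.28 ± 0.070, adjusted p = 0.0211). When single mice were omitted Hal passed in all 8 fits and Nags in 3 (edgeR adjusted p up to 0.0575). Hal was lost with limma on FPKM (adjusted p up to 0.0881) and Nags with the replicate block (edgeR adjusted p = 0.151). Without old vehicle female 3 Cps1 was called lower in females (edgeR adjusted p = 0.0268), and without old vehicle male 2 Slc25a15 higher (edgeR adjusted p = 0.00935). In young mice Hal was 577, 527, 686, 649 and 496 CPM in females and 366, 589.9, 629 and 591 in males (log2 fold change 0.10 ± 0.16, adjusted p = 0.730), and Nags was 79.2, 73.0, 79.1, 96.4 and 100.5 and 95.5, 85.5, 103.7 and 99.0 (log2 fold change -0.17 ± 0.11, adjusted p = 0.342).

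Other genes of nitrogen handling were read from lists set beside the 10, with log2 fold changes ± SE and edgeR adjusted p-values in parentheses. Of 37 further amino acid catabolic genes tested between old and young females, 3 were higher and 22 lower, with a median of -0.38, where 15% of all genes were lower and 31.8% were called in either direction. The lower ones with the smallest FDR were Oat, which makes glutamate semialdehyde from ornithine (-1.36 ± 0.12, adjusted p = 2.09e-05), the betaine-dependent methyltransferase Bhmt (-1.41 ± 0.14, adjusted p = 3.66e-05) and Agxt2 (-1.08 ± 0.11, adjusted p = 6.12e-05). Those higher were Gldc of the glycine cleavage system (0.55 ± 0.13, adjusted p = 0.00676), Cbs of transsulfuration (0.51 ± 0.14, adjusted p = 0.0137) and glutamate dehydrogenase Glud1 (0.27 ± 0.10, adjusted p = 0.0494). Of 11 genes of nitrogen transport and support 9 were lower and none higher, led by the glutamate carrier Slc1a2 (-0.98 ± 0.13, adjusted p = 0.000212), the amino acid carrier Slc43a1 (-1.52 ± 0.23, adjusted p = 0.000595) and Car5a, the mitochondrial carbonic anhydrase that supplies Cps1 with bicarbonate (-0.52 ± 0.083, adjusted p = 0.000772). Of 14 regulators of these genes 3 were lower: Sirt5, the deacylase known to act on Cps1 (-0.81 ± 0.13, adjusted p = 0.000670), the coactivator Ppargc1a (-0.62 ± 0.18, adjusted p = 0.0175) and Sirt3 (-0.25 ± 0.087, adjusted p = 0.0439). Calls among the regulators were thus below the 31.8% of all genes called in either direction. The median of the 14 was -0.0022, beside 0.0094 over all genes.

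In males, 6 of the 37 catabolic genes were lower with age and none was higher, with a median of -0.37, where 0.931% of all genes were lower. They were led by Bhmt (-1.52 ± 0.21, adjusted p = 0.00656), the tryptophan dioxygenase Tdo2 (-1.08 ± 0.17, adjusted p = 0.0116) and Agxt2 (-0.48 ± 0.10, adjusted p = 0.0281). Of 11 transport genes 1 was lower, the glutamate carrier Slc25a22 (-0.61 ± 0.14, adjusted p = 0.0388), and of 14 regulators none was called with edgeR, 0 having an unadjusted p under 0.05. The interaction of sex and age passed in 4 of the 37 catabolic genes, beside 3.92% of all genes, for Gldc (1.34 ± 0.27, adjusted p = 0.0141), Cbs (1.17 ± 0.29, adjusted p = 0.0335), Glud1 (0.66 ± 0.15, adjusted p = 0.0219) and Agxt2 (-0.59 ± 0.15, adjusted p = 0.0376). Gldc, for example, was 280.4 ± 17.8 CPM in old and 195 ± 38.7 in young females, and 112 ± 34.6 in old and 194 ± 41.5 in young males.

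With HDM201 in females 2 of the 37 catabolic genes were lower, Gnmt (-0.45 ± 0.10, adjusted p = 0.0308) and Ahcy (-0.42 ± 0.10, adjusted p = 0.0417), both of methionine metabolism. Of the 11 transport genes 2 were higher and of the 14 regulators 1 was lower. Over all genes 5.25% were called in either direction, a share close to that of the catabolic genes. The transport genes were Aqp9, a channel for glycerol and urea (0.38 ± 0.088, adjusted p = 0.0338), and the aspartate-glutamate carrier Slc25a13, which supplies the aspartate that Ass1 uses (0.26 ± 0.067, adjusted p = 0.0458). The regulator was the hepatocyte factor Hnf4a (-0.27 ± 0.061, adjusted p = 0.0320). In HDM201 males none of the 3 lists had a gene called with edgeR, and 9 of 37, 2 of 11 and 5 of 14 had an unadjusted p under 0.05, beside 12.1% of all genes.

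In old vehicle mice 9 of the 37 catabolic genes were higher in females and 2 lower, where 8.4% of all genes were higher and 18% were called in either direction. Gldc (1.32 ± 0.19, adjusted p = 0.00187), Glud1 (0.54 ± 0.090, adjusted p = 0.00413) and Uroc1, which acts on the urocanate that Hal makes (0.38 ± 0.068, adjusted p = 0.00576), led the higher ones, and Tdo2 (-0.98 ± 0.21, adjusted p = 0.0127) and Agxt2 (-0.56 ± 0.13, adjusted p = 0.0153) were lower. Of the 14 regulators 2, Cebpb (1.24 ± 0.21, adjusted p = 0.00448) and Nr1i3 (0.61 ± 0.16, adjusted p = 0.0247), were also higher in old females. In young mice 4 of the 37 were called, close to the 10.5% of all genes: 2 catabolic genes were higher in females (Shmt1, 0.59 ± 0.12, adjusted p = 0.0103, and Bckdhb, 0.34 ± 0.10, adjusted p = 0.0434) and 2 lower (Tdo2, -0.60 ± 0.14, adjusted p = 0.0166, and Sdsl, -0.89 ± 0.22, adjusted p = 0.0229). Rhbg (0.99 ± 0.19, adjusted p = 0.00767), Slc43a1 (0.84 ± 0.23, adjusted p = 0.0399), Nr1i3 (1.05 ± 0.23, adjusted p = 0.0136) and Cebpb (0.87 ± 0.20, adjusted p = 0.0163) were higher in young females and Onecut1 (-1.61 ± 0.46, adjusted p = 0.0439) lower, which are 2 of the 11 transport genes and 3 of the 14 regulators.

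Genes of the other end of the lobule were set beside the members. Of 14 pericentral genes, 10 were lower and none higher in old than young females, where 15% of all genes were lower, among them Glul, the glutamine synthetase (-0.51 ± 0.12, adjusted p = 0.00626), and Cyp2e1 (-0.94 ± 0.17, adjusted p = 0.00156). Of 12 periportal genes, 3 of them members (Hal, Sds and Gls2), 3 were higher and 4 lower, where 31.8% of all genes were called in either direction. The lower ones include the members Sds and Gls2, and none of the higher ones is a member. The periportal Cyp2f2 (-0.28 ± 0.10, adjusted p = 0.0570) was not called. Nor were the gluconeogenic enzyme Pck1 (-0.29 ± 0.22, adjusted p = 0.344) and the tyrosine aminotransferase Tat (-0.34 ± 0.17, adjusted p = 0.157), which respond to fasting. In males 1 of the 14 pericentral genes was lower, Oat (-1.06 ± 0.24, adjusted p = 0.0411). With HDM201 none of the 14 was called in either sex with edgeR, with 3 and 1 at an unadjusted p under 0.05 in females and males, beside 22.5% and 12.1% of all genes. Old females were below old males in Cyp2e1 (-0.64 ± 0.15, adjusted p = 0.0154) and Cyp2f2 (-0.74 ± 0.16, adjusted p = 0.0124). The lists as a whole were mixed: 3 of the 14 pericentral genes were higher in old vehicle females and 1 lower. Of the 12 periportal genes 3 were higher and 3 lower. Over all genes 8.4% were higher and 18% were called in either direction.

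**Figure D5:**
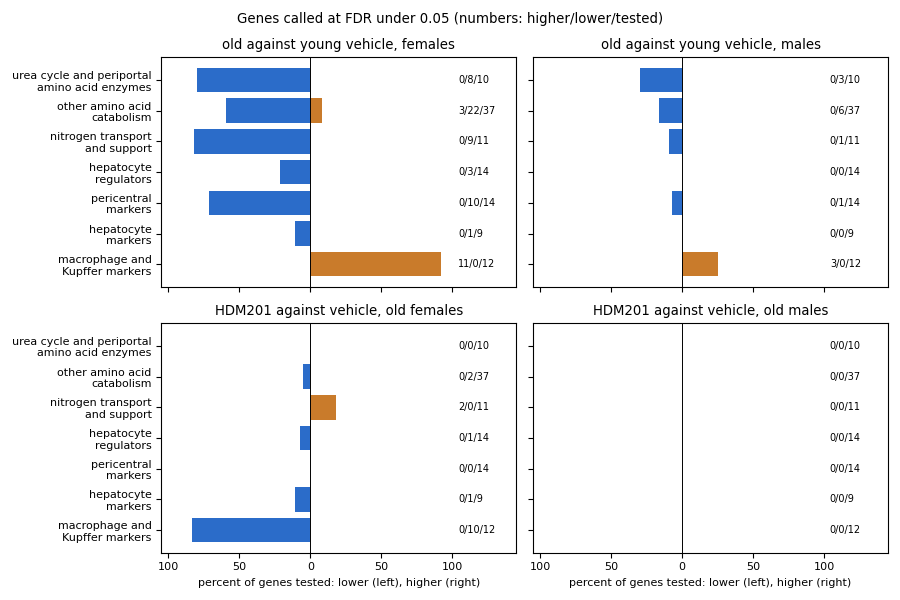
Percent of the genes tested in each list (vertical axis) that were called lower (bars to the left) or higher (bars to the right) at an FDR under 0.05, in 4 comparisons; the numbers give higher, lower and tested. With age in females 8 of 10 members were lower and 11 of 12 macrophage markers higher, and with HDM201 in males no list has a called gene.

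Across all 27 mice with counts, 8 of the members were closely correlated with one another and Nags and Hal less so. Spearman's rho of log2 CPM over the 28 pairs without Nags or Hal ran from 0.601 to 0.932, with a median of 0.788. The 8 pairs of Hal with these genes gave 0.307 to 0.703, and the 9 pairs of Nags -0.216 to 0.283. The mice share age groups and libraries, so these values are a description without a test. Among 12763 genes, the patterns most like Cps1 were those of Mpv17l (rho 0.915), Itch (rho 0.912) and Pcmtd1 (rho 0.910). For Gls2 they were Gm5424 (rho 0.929), Gstk1 (rho 0.922) and Hpd (rho 0.908), and for Sds Sorbs3 (rho 0.900), Got1 (rho 0.893) and Gm5424 (rho 0.869).

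Some reads of the members can belong to other genes. Gm5424 is a processed pseudogene of Ass1 with 99.5% identity over 1240 aligned bases, and its median count was 1.01% of that of Ass1. Plbd2 overlaps 360 exon bases of Sds on the opposite strand and had a median count of 33% of that of Sds, and Gm11586 overlaps 443 exon bases of Nags on the opposite strand with 0.956% of its count. Spryd4 shares 97 exon bases with Gls2 and Gm15690 141 with Sds, both on the opposite strand. Whether reads were counted by strand is not given in the sources used here, so reads in these overlaps cannot be told apart.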

How the data were processed

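Liver RNA of 29 mice in 6 groups was sequenced. For alignment to mm10 the authors used STAR in 2 passes. SAMtools filtered the reads, HTSeq counted them per gene, and the authors deposited these raw counts for 27 mice. The authors made the deposited FPKM values, which cover all 29 mice, with Cufflinks. Versions and the strand setting are not given in the sources used here. Empty FPKM cells, of which 94.8% belong to a count of 0, were read as 0, and FPKM summed to between 690769 and 6010510 per mouse.

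Comparisons were fitted on the mice of the groups compared with edgeR 4.0.16 in R 4.3.3. Low genes were removed by filterByExpr (minimum count 10, minimum total 15), libraries scaled by TMM, and p-values of the quasi-likelihood F test adjusted by Benjamini-Hochberg over all genes tested, with a threshold of 0.05. The methods name DESeq2, which served as an alternative (1.42.0), as did limma 3.58.1 on log2(FPKM + 1) and log2(FPKM + 0.1) where the mean FPKM reached 0.1, a limit set after the files had been seen. The edgeR steps were tested on simulated counts. Further alternatives were RLE size factors, no filter, a single fit of all 6 groups, a block for the replicate number, an FDR of 0.01, omission of each mouse, and, added after seeing the data, FPKM fits on mice with counts and fits without old vehicle female 3 and old vehicle male 2. Near-identical copies were sought with blastn 2.17.0, and 98.5% of gene identifiers matched the GENCODE annotation.

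The members and lists were chosen with earlier results of these data known. Named genes were the 10 members in every comparison, up to 3 called genes with the smallest FDR per direction from each list of amino acid catabolism, nitrogen transport and regulators, 4 zonation genes (Glul, Oat, Cyp2e1, Cyp2f2), Pck1 and Tat, and the 3 genes most like Cps1, Gls2 and Sds over mice among those with a mean CPM of at least 1. Marker lists are given as counts and sums.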

Additional observations from a re-analysis of the deposited data

Results flagged for a closer look

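Each member was checked in each group for a mouse far from the others, 60 sets of 4 or 5 mice in all, by the gap of the highest or lowest mouse over the whole range. A gap this large arises by chance in about 5% of such sets, and 4 were found. Arg1 was 1612 CPM in old vehicle female 3 and 1146 to 1207 in the other 3. Sds was 469 CPM in old vehicle male 2 and 190.0 to 223 in the other 3. Hal was 598 CPM in old HDM201 female 2 and 430.1 to 453 in the other 4, and 366 CPM in young vehicle male 1 and 589.9 to 629 in the other 3. Without old vehicle male 2 the log2 fold change of Sds with age in males was -1.83 (edgeR adjusted p = 0.0103), and without old vehicle female 3 that of Arg1 in females was -0.78 (edgeR adjusted p = 0.000335). Without young male 1 the log2 fold change of Hal with age in males was -0.85 (edgeR adjusted p = 0.0325). In no member did the difference between the sexes in the effect of age or HDM201 pass the edgeR test.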

How the results depend on the processing

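Of 227 recomputed values of called members, 167 kept their direction and passed, 60 kept their direction without passing and 0 changed sign. Of 1293 values of members not called, 33 passed and 131 changed sign. The number of members called with HDM201 in females rose from 0 to 1 with DESeq2, without the filter and with the replicate block, Asl in each. With age in males it went from 3 to 6 with DESeq2 and with all 6 groups in 1 fit, to 5 without the filter, to 1 with limma on mice with counts, and to 0 with the replicate block, at an FDR of 0.01 and with both FPKM fits. For sex in young mice it went from 1 to 0 with RLE size factors, without the filter, with the block, at an FDR of 0.01 and with both FPKM fits. For sex in old mice it went from 2 to 1 with the block (Hal), at an FDR of 0.01 (Hal) and with the 3 FPKM fits (Nags), and to 3 (Cps1, Slc25a15 and Hal) without old vehicle female 3 and old vehicle male 2, and for the interaction of sex and age from 0 to 1, Nags, with DESeq2 and the 3 FPKM fits. With each mouse omitted the number was 0 to 1 for HDM201 in females, 7 to 8 and 0 to 4 for age in females and males, 0 to 1 and 1 to 3 for sex in young and old mice, and 0 to 2 for the interaction of sex and age. With age in females it went from 8 to 9 with all 6 groups in 1 fit, Nags being added, to 7 at an FDR of 0.01 and, with both FPKM fits, to 7, which lost Asl and Slc25a15 and gained Nags. With the block it was 8, Nags in place of Asl. The cause of these shifts was not tested.

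Log2 fold changes of members not called that changed sign were, with limma on log2(FPKM + 1) or log2(FPKM + 0.1), Slc25a15 -0.0081 and -0.0082 for HDM201 in females, Cps1 0.071 for HDM201 in males, Otc 0.051 and 0.052 for age in males, Arg1 0.13 and Sds 0.060 for sex in young mice, Otc 0.21 and 0.22, Ass1 0.31 and Arg1 0.10 for sex in old mice, Cps1 -0.0100, Otc -0.012, Ass1 -0.22, Asl -0.22, Arg1 -0.10 and Gls2 -0.19 for the interaction of sex and HDM201, Asl -0.10, Arg1 -0.033 and Gls2 -0.050 for the interaction of sex and age. With limma on mice with counts they were Otc 0.14, Ass1 0.17 and Arg1 0.11 for sex in old mice, Ass1 -0.083, Asl -0.055, Arg1 -0.11 and Gls2 -0.054 for the interaction of sex and HDM201, Ass1 0.019 for the interaction of sex and age. With the replicate block they were Sds 0.017 for HDM201 in males, Cps1 -0.026 for sex in young mice, Otc 0.032 and Ass1 0.013 for sex in old mice, Asl -0.078 and Gls2 -0.040 for the interaction of sex and HDM201. Without old vehicle female 3 and old vehicle male 2 they were Ass1 0.086 for sex in old mice, Ass1 -0.069 and Asl -0.047 for the interaction of sex and HDM201, Arg1 -0.087 for the interaction of sex and age. With DESeq2, RLE size factors, all 6 groups in 1 fit or no filter they were Sds 0.0035 and 0.0041 for the interaction of sex and HDM201, Arg1 -0.0079 and -0.0072 and -0.020 for the interaction of sex and age. The ranges over omitted mice that cross 0 were Cps1 -0.042 to 0.23 and Slc25a15 -0.041 to 0.067 for HDM201 in females, Sds -0.45 to 0.14 for HDM201 in males, Cps1 -0.049 to 0.11, Hal -0.050 to 0.19, Arg1 -0.11 to 0.029 and Sds -0.39 to 0.0083 for sex in young mice, Otc -0.062 to 0.044, Ass1 -0.14 to 0.18 and Arg1 -0.17 to 0.0074 for sex in old mice, Asl -0.18 to 0.13, Arg1 -0.067 to 0.13, Sds -0.39 to 0.22, Ass1 -0.16 to 0.16 and Gls2 -0.050 to 0.17 for the interaction of sex and HDM201, Asl -0.10 to 0.22, Arg1 -0.12 to 0.072, Gls2 -0.064 to 0.15 and Ass1 -0.26 to 0.059 for the interaction of sex and age. The cause was not tested.

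Over all genes, the number called and, in parentheses, its range over the alternatives and omitted mice was 758 (51 to 1330) for HDM201 in females, 1 (0 to 151) in males, 4530 (2513 to 4813) for age in females, 507 (29 to 2007) in males, 1462 (458 to 2483) for sex in young mice, 2536 (742 to 3023) in old mice, 16 (0 to 643) for the interaction with HDM201 and 577 (48 to 1193) for that with age. Correlations of the deviations of same-numbered mice ran from -0.234 to 0.241, and no comparison had all of them over 0.1. HDM201 in males and sex in young and in old mice each had 2 over 0.1. With 3 or 4 such pairs per comparison, these values cannot decide whether the replicate numbers pair the mice. The lowest count of a member in a mouse was 1256 (Nags), and the spread between mice was larger than the Poisson error of a count in all 60 sets of a member and a group except 1, Nags in old vehicle females, the group on which the Nags call between the sexes rests.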

Other observations

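Lists that respond to feeding state and inflammation were counted in the same fits. With age in females the fasting response had 4 higher and 3 lower of 12 genes, the acute phase 6 higher and 0 lower of 9 and the glucocorticoid response 0 higher and 1 lower of 6. Over all genes 31.8% were called in either direction and 15% were lower. With HDM201 in females the lists had 2 higher and 0 lower of 12, 0 higher and 1 lower of 9 and 0 higher and 1 lower of 6, beside 5.25% of all genes called. In males 0 genes of the 3 lists were called in either comparison with edgeR, beside 3.69% of all genes with age and 0.00709% with HDM201. At an unadjusted p under 0.05 in males were 1, 5 and 1 genes of these lists with age and 4, 3 and 1 genes with HDM201. Over all genes 12.1% had such a p with HDM201 in males, and the share with age is not given here. Summed CPM of the glucocorticoid genes was 2789 to 4299.8 in young females, 2172 to 3618 in old vehicle females and 1466 to 2367 in old HDM201 females. In males it was 1685 to 3658 in young, 1312 to 3420.2 in old vehicle and 1437 to 2152 in old HDM201 mice.

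Of the genes that take a product or supply a substrate of the members, Oat was called lower with age in both sexes and Glul in females. Oat, which like Otc uses ornithine but is in the pericentral list, was 946 ± 110.0 CPM in young (n = 5) and 362 ± 58.9 in old vehicle females (n = 4), and 814 ± 148 in young (n = 4) and 388 ± 128 in old vehicle males (n = 4). Glul, also in the pericentral list, makes glutamine from glutamate, and was 1168 ± 124 CPM in young and 806 ± 130.0 in old vehicle females. With HDM201 Oat was 362 ± 43.0 CPM in old females and 294 ± 46.9 in old males (n = 5 each). The log2 fold changes from edgeR were -0.021 ± 0.11, adjusted p = 0.937 in females and -0.39 ± 0.21, adjusted p = 0.475 in males.

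In 3 mice the summed FPKM lay far above that of the others, and single genes held much of it: Gm15536 held 1627920 FPKM in old HDM201 female 1, Gm48326 held 5287650 FPKM in old HDM201 male 5 and Gm26269 held 376342 FPKM in young vehicle female 5. The FPKM values of the members in these mice were used as deposited.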
